A study of Mus musculus with 6 samples.

Results

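The genes described here are 12 of the 23282 entries in the deposited count tables of mouse forebrain RNA, chosen by a shared dip in a pair of libraries. They were selected on CPM, the count of a gene as a share of the total count of its library scaled to 1000000. In each of WAS replicates 2 and 3 and control replicates 1 and 3 a member had at least 1 CPM, and the lowest of these 4 values was at least 2 times the higher value of WAS replicate 1 and control replicate 2. Of the 13199 entries that could have met the rule because their lowest value in the 4 libraries reached 1 CPM, 0.0909% did. The 10 choroid plexus genes Ttr, Folr1, Kl, Clic6, Aqp1, Kcne2, Enpp2, Kcnj13, Sostdc1 and F5 were left out by the rule and serve as reference. Because the rule used these values, the dip is a description of the libraries and carries no test.

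RNA came from a single hemisphere of the forebrain of adult male C57BL/6J mice, without olfactory bulb and cerebellum. It was measured by QuantSeq 3′ mRNA-Seq, which counts reads from the ends of polyadenylated transcripts, with 1 library per mouse and 3 mice in each group. Mice of the water avoidance stress (WAS) group spent 1 h on a platform surrounded by water, and control mice spent 1 h on the same platform in a dry container. No genotype, transgene or drug was part of the design. Total counts lay between 9248520 and 10502029 per library, so that 1 CPM stands for about 10 reads. The count columns of the libraries labelled WAS carry headings that start with WC and those labelled control headings that start with WS, which the sources used here do not explain. Directions between groups follow the sample labels, and each would change sign if the headings and not the labels were right. The dip itself crosses the labels, as each group holds 1 low library and 2 high ones.

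The choroid plexus is a fold of vascular tissue in the brain ventricles whose epithelium secretes cerebrospinal fluid. Its cells carry ion and bicarbonate transporters in the apical membrane, bear cilia, and release carrier proteins such as transthyretin, the product of Ttr. Ependymal cells line the rest of the ventricular wall and move the fluid with motile cilia. In a bulk sample of tissue, fewer cells of a type and less RNA per cell cannot be told apart.

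Before the values of the members, 2 features of the low libraries are given. In WAS replicate 1, the summed CPM of 7 striatal genes was 129.2 against 290.1 to 1553 in the other 5 libraries, and the summed CPM of 11 midbrain and hindbrain genes was 51.3 in WAS replicate 1 and 78.7 in WAS replicate 3 against 3.95 to 5.81 in the other 4 libraries. Among those 5, the 290.1 CPM of striatal genes belonged to WAS replicate 3 and the next value was 775.2 CPM. Control replicate 2 lay inside the range of the other libraries for the striatal genes (1011 CPM) and was the lowest library for the midbrain and hindbrain genes (3.95 CPM). The 2 low libraries thus differed from each other in regional markers. The part of regional content in the dip of the members was not tested.

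Ttr, the reference gene with the highest CPM, shows the shape of the dip. Its counts were 364 in WAS replicate 1 and 114 in control replicate 2, whereas WAS replicates 2 and 3 held 10626 and 8874 reads and control replicates 1 and 3 held 12599 and 9085. WAS replicate 1 held 3.51% and control replicate 2 held 1.07% of the median CPM of the other 4 libraries. The rule's ratio was at least 2 for 9 of the 10 reference genes and 1.48 for Enpp2, which encodes autotaxin and is also made by oligodendrocytes.

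Promoter sequences of 3 members are shown because these members had the largest ratios of the rule, so that their start regions can be read beside the shared dip. They come from RefSeq on GRCm38.p6, run 5′ to 3′ on the strand of the gene and cover 250 bases before to 50 bases after the start of transcription. Capitals mark a match to 1 arm of the X-box (GTTNCCAT, searched on both strands), the motif read by RFX factors of ciliated cells.
Tmem72, chr6:116716709-116717008, minus strand: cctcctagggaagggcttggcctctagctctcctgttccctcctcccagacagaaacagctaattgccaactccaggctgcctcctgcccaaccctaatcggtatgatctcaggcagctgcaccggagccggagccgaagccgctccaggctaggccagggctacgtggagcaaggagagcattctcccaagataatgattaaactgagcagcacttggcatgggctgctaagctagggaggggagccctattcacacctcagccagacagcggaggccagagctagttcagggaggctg
1500015O10Rik (Ecrg4), chr1:43730352-43730651, plus strand: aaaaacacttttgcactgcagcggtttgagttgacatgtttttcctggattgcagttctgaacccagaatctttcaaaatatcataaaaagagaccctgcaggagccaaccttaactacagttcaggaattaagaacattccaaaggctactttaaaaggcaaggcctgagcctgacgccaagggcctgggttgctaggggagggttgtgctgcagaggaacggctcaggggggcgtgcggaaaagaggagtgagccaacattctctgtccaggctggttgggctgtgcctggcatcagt
Drc7, chr8:95054853-95055152, plus strand: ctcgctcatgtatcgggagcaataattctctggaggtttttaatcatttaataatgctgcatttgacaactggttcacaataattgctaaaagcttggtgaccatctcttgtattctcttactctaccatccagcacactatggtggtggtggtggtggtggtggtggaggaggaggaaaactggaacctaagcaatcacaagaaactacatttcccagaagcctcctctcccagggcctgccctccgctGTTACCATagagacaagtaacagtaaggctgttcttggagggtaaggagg

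The table of promoters held 11 of the 12 members. Of these, 1 member, Drc7, had the X-box arm, which began at the first transcribed base and occurs in 4.46% of the 32851 promoter windows of the same length. The core of the Otx and Crx homeodomain motif (TAATCC), searched on both strands like the others, was found in 0 of the 11 members and in 7.06% of all windows. The forkhead core (GTAAACA) was found in 0 members and in 3.65% of all windows. These are matches of letters in a short window and say nothing of binding.

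Among the members, 6 were genes listed for the choroid plexus, and 4 of these belonged to its epithelial identity list. The lists were chosen with earlier results of these data known, so these counts are a description and not independent support for a cell type. 1500015O10Rik, now named Ecrg4, encodes the secreted peptide precursor augurin and lies on chromosome 1 at 43730602 to 43742578 of GRCm38. Its reads numbered 18, 122 and 122 for WAS libraries 1, 2 and 3, then 125, 20 and 132 for control libraries 1, 2 and 3. The 4 high libraries stayed within 11.9 and 13.2 CPM and the 2 low ones at 1.79 and 1.93 CPM, which left 14.1% and 15.2% of the median of the high libraries. It was the member with the narrowest spread among the high libraries, with the highest value 1.11 times the lowest. Within 500 bases of its end lie Gm29155 on the opposite strand, which overlaps it, and Gm29157 on the same strand. The strand setting of the counting is not given in the sources used here, so reads of 1500015O10Rik and Gm29155 cannot be told apart where these genes overlap. Gm29157 does not overlap 1500015O10Rik in the annotation used, though strand would not separate reads that run past the end of the gene.

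Tmem72, a membrane protein gene on chromosome 6 (116679063 to 116716913), had 0, 16 and 26 reads for WAS libraries 1, 2 and 3, then 25, 1 and 30 for control libraries 1, 2 and 3. Its ratio by the rule, 17.96, was the largest of the members, with a 95% interval of 2.79 to 753 for counting error alone. With a limit of 3 counts for a count of 0, WAS replicate 1 held at most 0.298 CPM, at least 8.36-fold lower than the median of the high libraries. The exact Poisson 95% interval plotted for the same count is wider and ends at 14.7% of that median. The single read of control replicate 2 stood for 3.87% of that median (95% counting interval 0.0979 to 21.5%).

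Slc4a5 encodes the electrogenic sodium bicarbonate cotransporter NBCe2, found in the apical membrane of choroid plexus epithelium, and lies on chromosome 6 at 83219828 to 83304945. Its reads numbered 0, 56 and 22 for WAS libraries 1, 2 and 3, then 34, 5 and 34 for control libraries 1, 2 and 3. By the same limit of 3 counts it was at least 11.1-fold lower in WAS replicate 1 than the median of the high libraries (the plotted interval ends at 11.03%), and in control replicate 2 it stood at 14.5% of that median. The high libraries differed among themselves, as WAS replicate 2 had 2.75 times the CPM of WAS replicate 3.

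Steap1, a member of the STEAP family of membrane metalloreductases on chromosome 5 (5736317 to 5749326), had 4, 31 and 11 reads for WAS libraries 1, 2 and 3, then 43, 1 and 10 for control libraries 1, 2 and 3. It varied more among the high libraries than any other member. WAS replicate 2 and control replicate 1 held 3.35 and 4.09 CPM, whereas WAS replicate 3 and control replicate 3 held 1.10 and 1.00 CPM, the last of these just at the minimum of the rule.

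Wfdc2 encodes a secreted protein of epithelia with protease inhibitor domains, and lies on chromosome 2 at 164562413 to 164568510. Its reads numbered 2, 11 and 17 for WAS libraries 1, 2 and 3, then 18, 3 and 22 for control libraries 1, 2 and 3. WAS replicate 1 kept 11.6% and control replicate 2 kept 16.9% of the median of the high libraries. With 2 and 3 reads behind these values, their 95% counting intervals were 1.41 to 42.0% and 3.49 to 49.4%.

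The remaining members of the choroid plexus and ventricular lists were genes of motile cilia and ependyma. Drc7, on chromosome 8 at 95055103 to 95078141 and listed here under the choroid plexus epithelium, encodes a subunit of the nexin-dynein regulatory complex, the link between neighbouring doublet microtubules in motile cilia. Its reads numbered 4, 25 and 27 for WAS libraries 1, 2 and 3, then 29, 1 and 20 for control libraries 1, 2 and 3. The low libraries kept 14.7% and 3.56% of the median of the high ones. Of the 8 genes listed for this complex, Drc7 alone met the rule. Lrrc48 and Iqcg were also lower in both libraries, with ratios of 1.14 and 1.00, and Drc1 had a lowest value in the 4 libraries of 0.573 times the higher value of the 2.

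Tmem212, a membrane protein gene used as a marker of ependymal cells, lies on chromosome 3 at 27866066 to 27896368. It had 6, 15 and 20 reads for WAS libraries 1, 2 and 3, then 16, 4 and 31 for control libraries 1, 2 and 3. Mia, on chromosome 7 at 27179742 to 27181157, which encodes a small secreted protein first known from melanoma and cartilage, had 4, 18 and 18 reads for WAS libraries 1, 2 and 3, then 17, 6 and 19 for control libraries 1, 2 and 3. The high libraries of Mia stayed close, from 1.62 to 1.95 CPM, and the low ones kept 21.4% and 31.2% of their median. Mia shares its last bases with the overlapping gene Gm21983 on the same strand, so its counts are uncertain.

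The other 4 members belonged to none of these lists. Hdc, on chromosome 2 at 126593667 to 126619299, encodes histidine decarboxylase, the enzyme that makes histamine, which the brain holds in neurons of the posterior hypothalamus and in mast cells. Its reads numbered 10, 42 and 32 for WAS libraries 1, 2 and 3, then 37, 12 and 60 for control libraries 1, 2 and 3, and the low libraries kept 24.6% and 28.7% of the median of the high ones. The other histamine genes did not share the dip. Hnmt, which breaks histamine down, had counts of 320, 348 and 327 in the WAS replicates and 462, 420 and 367 in the control replicates, and the receptor gene Hrh3 had 826, 1207 and 735 against 1172, 1332 and 1182. Slc18a2, the vesicular monoamine transporter, had 119, 96 and 275 against 108, 102 and 103. Of 7 mast cell genes, Cpa3, Cma1 and Tpsb2 had at most 6 reads in any library, Ms4a2 had 1 read in WAS replicate 1 alone, and Mcpt4, Tpsab1 and Fcer1a were at 0 throughout.

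Crabp1, a cytosolic binding protein of retinoic acid on chromosome 9 (54764748 to 54773110), had 3, 38 and 21 reads for WAS libraries 1, 2 and 3, then 22, 9 and 21 for control libraries 1, 2 and 3. The 2 low libraries stood at 14.2% and 41.2% of the median of the high ones, with 95% counting intervals of 2.92 to 41.4% and 18.8 to 78.2%. Of 12 genes of retinoid binding and metabolism, Crabp1 alone met the rule.

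Ppp1r3b, on chromosome 8 at 35375739 to 35388139, encodes a subunit that directs protein phosphatase 1 to glycogen. It had 8, 22 and 25 reads for WAS libraries 1, 2 and 3, then 18, 4 and 22 for control libraries 1, 2 and 3. The last 500 bases of its transcript share a stretch of 50 bases with transcripts of 253 other genes, and as reads with several alignments were counted, its values are uncertain.

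Chrna3, the α3 subunit of nicotinic acetylcholine receptors and a gene of the medial habenula, had 7, 15 and 19 reads for WAS libraries 1, 2 and 3, then 17, 5 and 14 for control libraries 1, 2 and 3. It lies on chromosome 9 at 55010111 to 55026562. Its ratio, 2.02, was the smallest of the members, and its low libraries kept 42.9% and 29.7% of the median of the high ones. Chrnb4, its partner subunit, had counts of 7, 2 and 1 in the WAS replicates and 11, 1 and 5 in the control replicates and so did not follow it. Tac2, a neuropeptide gene also used in the habenula, was lower in both libraries with a ratio of 1.15 (49 and 59 reads against 65 to 85).

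**Figure D1:**
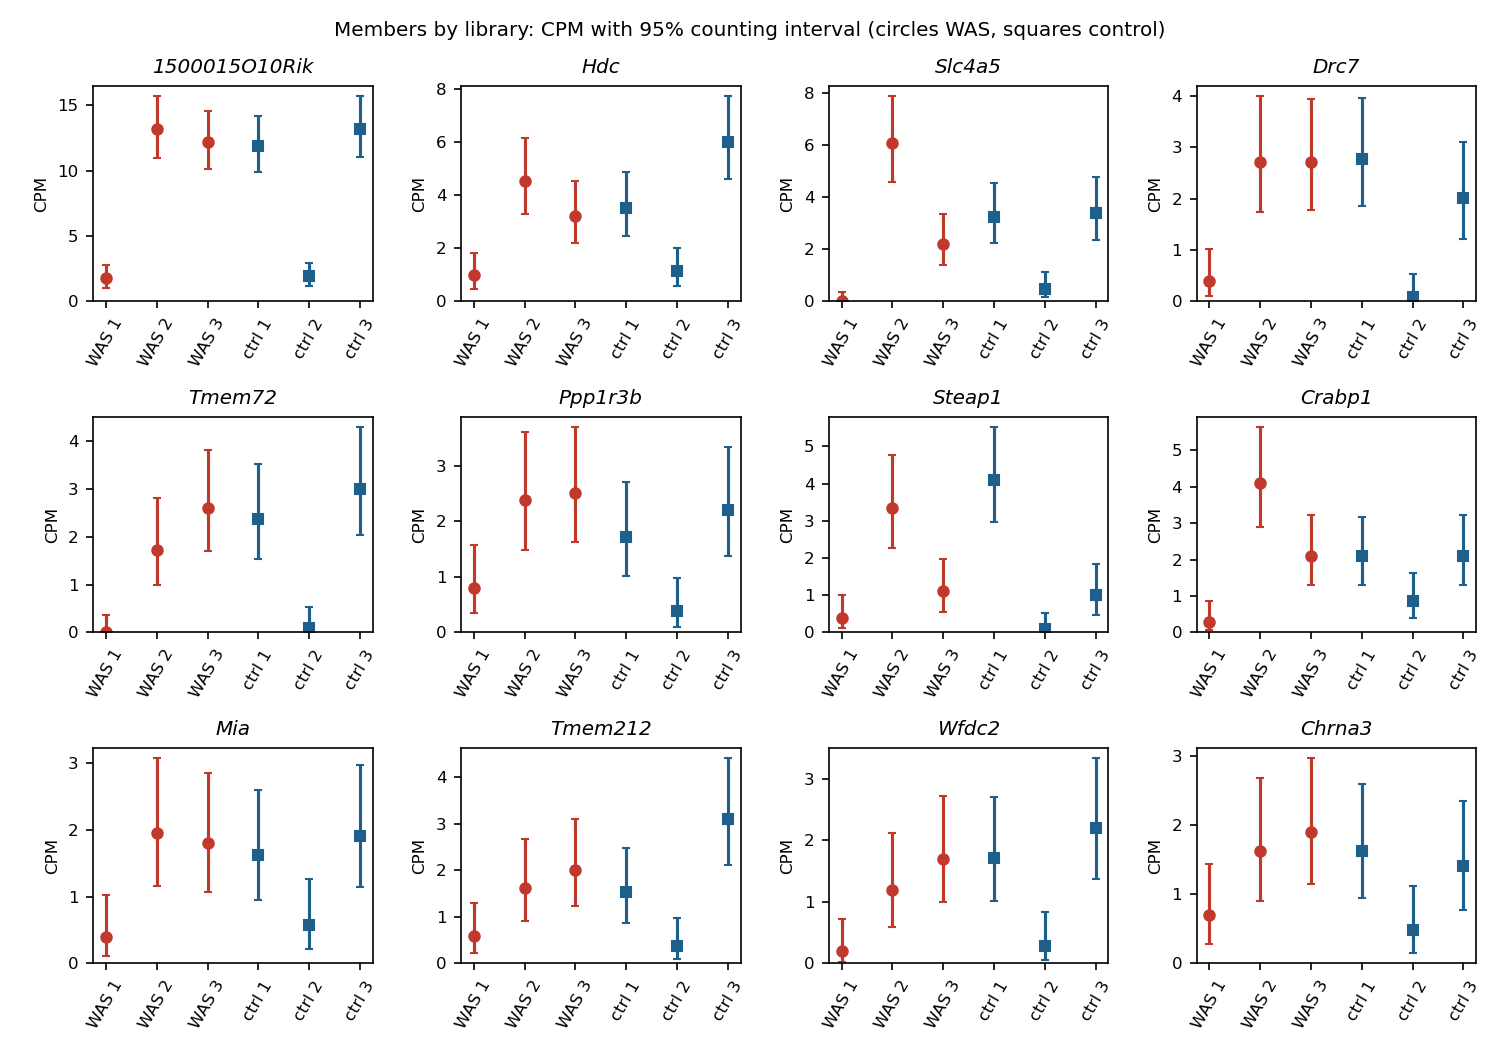
CPM of each member (vertical axis, from 0) in the 6 libraries (horizontal axis), with WAS as circles, control as squares and bars for the exact 95% Poisson interval of the count. WAS replicate 1 and control replicate 2 are the lowest points in every panel, as the rule requires, and 1500015O10Rik reads 1.79 and 1.93 CPM there against 11.9 to 13.2 CPM in the other libraries.

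The depth behind the members was low. The lowest value among the high libraries rested on fewer than 25 reads in 10 of the 12 members. The 95% counting interval of the ratio (exact, from the counts of the 2 libraries that set it) lay above 1 in 8 members and above 2 in 2 members, 1500015O10Rik and Tmem72. For Tmem212, Steap1, Ppp1r3b and Chrna3 the interval reached below 1. The reads carry no molecular identifiers, so these intervals and the limits for counts of 0 cover counting error only. Since the libraries were picked by the values, the intervals describe precision and are not a test.

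Near the limit of the rule, Chrna3, Ppp1r3b and Crabp1 lay just inside with ratios of 2.02, 2.16 and 2.42. Calml4, Tap1 and Mlf1 lay just outside with 1.93, 1.79 and 1.78. Calml4, a calmodulin-like gene of the choroid plexus list, had counts of 11, 31 and 21 in the WAS replicates and 26, 3 and 29 in the control replicates, and Mlf1 of the cilia list had 3, 20 and 12 against 22, 7 and 15. Another 13 genes kept the ratio but fell under 1 CPM, with their lowest value in the 4 libraries between 0.5 and 1 CPM. Among them were the tight junction gene Cldn2, with counts of 0, 25 and 15 against 20, 2 and 9, and the keratin gene Krt18, with 0, 6 and 14 against 10, 0 and 7. In the opposite direction, with both libraries at least 1 CPM and at least 2 times the highest of the other 4, 1 gene was found, Myh13, with 12 and 11 reads in the pair and at most 2 in the rest.

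The level left in the low libraries varied between members. In WAS replicate 1 it ran from 0 for Slc4a5 and Tmem72 to 42.9% for Chrna3, with a median of 16.3% of the level in the high libraries. In control replicate 2 it ran from 3.56% for Drc7 to 41.2% for Crabp1, with a median of 16.9%. The reference genes had medians of 13.5% and 8.83%, with Enpp2 highest at 56.2% and 60.8%. Neither library was the lower one throughout, as WAS replicate 1 had the lower CPM for 7 members and control replicate 2 for 5. Among the reference genes, Kl was lower in control replicate 2 (4.25% against 28.5%) and Clic6 in WAS replicate 1 (12.05% against 31.7%), and for both genes the counting intervals of the 2 libraries did not overlap.

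**Figure D2:**
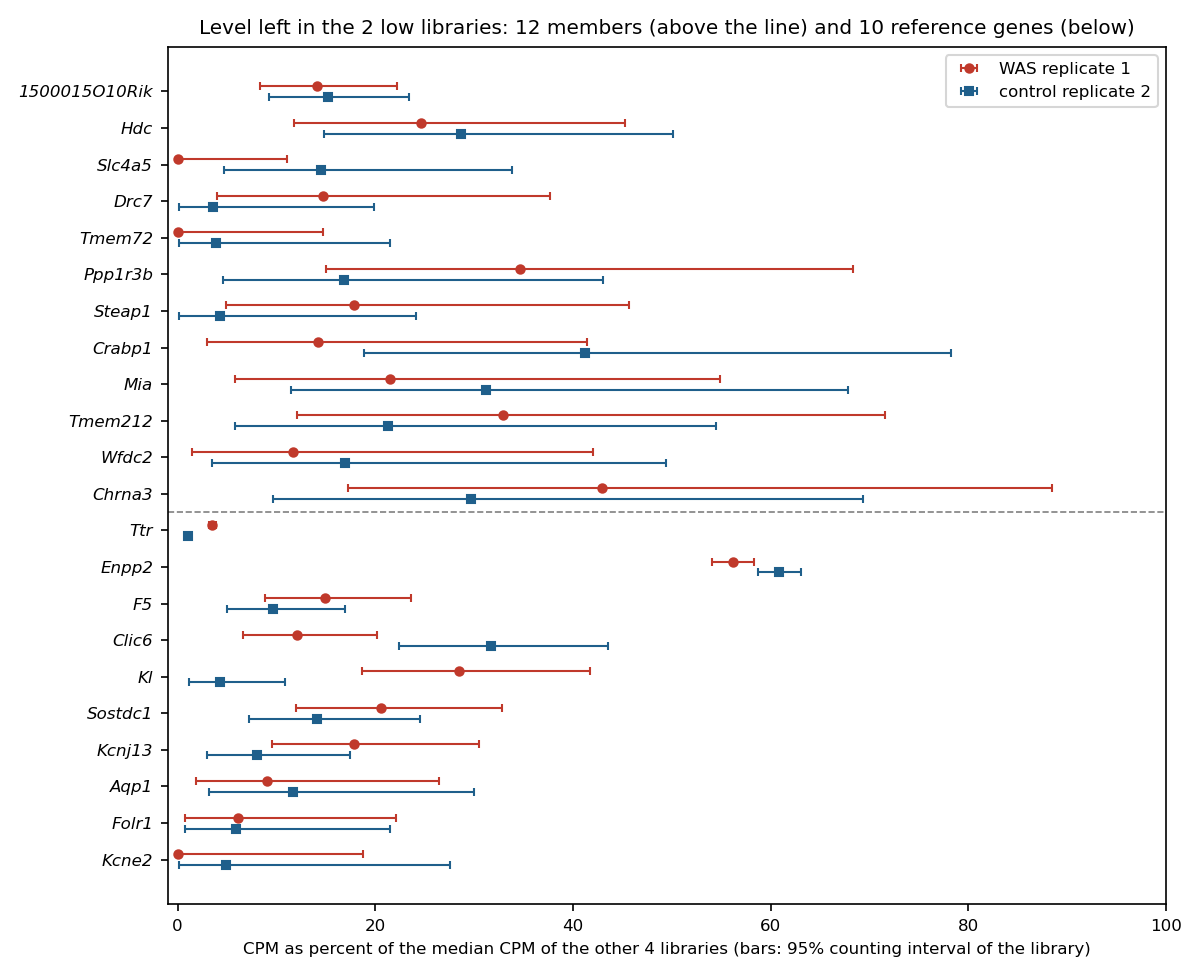
Horizontal axis, the CPM of WAS replicate 1 (circles) and control replicate 2 (squares) as a percentage of the median CPM of the other 4 libraries, with bars for the 95% counting interval of the low library. The 12 members (above the dashed line) lie between 0 and 42.9%, and Ttr and Enpp2 mark the ends of the reference genes with 1.07% and 60.8% in control replicate 2.

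Summed over the 12 members, the libraries held 6.56 and 6.84 CPM in WAS replicate 1 and control replicate 2 against 36.1 to 44.4 CPM in the other 4. The highest of the 4 was control replicate 3 for 5 members, WAS replicate 2 for 3, and WAS replicate 3 and control replicate 1 for 2 each. The high libraries therefore had no common order among the members.

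Most measured genes of the lists that hold the members did not meet the rule. Of 47 genes of the choroid plexus identity list found in the tables, 30 reached 1 CPM in the 4 high libraries, 12 were lower in both low libraries, and 4 met the rule. Over all 13199 entries at that level, 5.39% were lower in both. For choroid plexus transporters and channels, 32 of 39 genes reached that level, 5 were lower in both libraries and 2 met the rule. Of the 42 genes of motile cilia and ependyma, 31 reached it, 12 were lower in both, and 2 met the rule. These shares come from the contrast that chose the members and are given as a description.

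Foxj1, the master regulator of motile cilia, had 63 and 64 reads in WAS replicate 1 and control replicate 2 against 76 to 134 in the other libraries, a ratio of 1.22. Hydin and Ak7, also of motile cilia, had ratios of 1.78 and 1.73. Ccdc153 overlapped, with 20 and 15 reads in the low libraries and 17 to 72 in the others. Prlr, the prolactin receptor, and Otx2, a homeodomain factor, were at 10 and 8 reads in control replicate 2 but at 93 and 114 in WAS replicate 1. In the high libraries Prlr had 104 to 140 reads and Otx2 56 to 139. WAS replicate 1 thus lay inside that range for Otx2 and slightly under it for Prlr, with a ratio of 1.07.

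Among the families of the members, the dip was met by single genes. Of 10 SLC4 bicarbonate transporters, Slc4a5 alone met the rule, and Slc4a10, which the choroid plexus also uses, had 822 reads in WAS replicate 1 and 963 in control replicate 2 against 745 to 958 in the others. Steap2 had 46 and 31 reads in the low libraries against 16 to 44. In the glycogen-targeting subunits of protein phosphatase 1, with 7 genes listed, the same was true of Ppp1r3b.

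Whole marker lists are given for comparison. The summed CPM of the marker lists in WAS replicate 1 and control replicate 2, as percentages of the median of the other 4, was 93.2% and 88.4% for motile cilia and ependyma, 86.6% and 63.3% for choroid plexus identity, and 103% and 98.9% for choroid plexus transporters. Abundant genes that other brain cells share weigh most in these sums. Meningeal fibroblast genes stood at 122% and 73.8%, endothelium and mural cells at 97.7% and 99.3%, border macrophages at 86.1% and 57.0%, microglia at 86.7% and 91.8%, and erythroid cells at 117% and 91.1%. For astrocytes the values were 95.8% and 101%, for oligodendrocytes 82.3% and 90.5%, for neurons 93.5% and 111%, and for cortex and hippocampus 103% and 124%. Tanycyte and hypothalamus genes stood at 74.6% and 97.9%. In WAS replicate 1 the striatal list was at 13.8% and the habenula and thalamus list at 248%, and in control replicate 2 they were at 108% and 92.2%. Midbrain and hindbrain genes stood at 906% and 69.8%. Whether these shifts bear on the members was not tested. Pituitary and pineal genes summed to at most 1.90 CPM in the high libraries and 7.25 CPM in WAS replicate 1, of which Gh had 45 reads. The 10 reference genes stood at 20.2% and 19.9%.

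**Figure D3:**
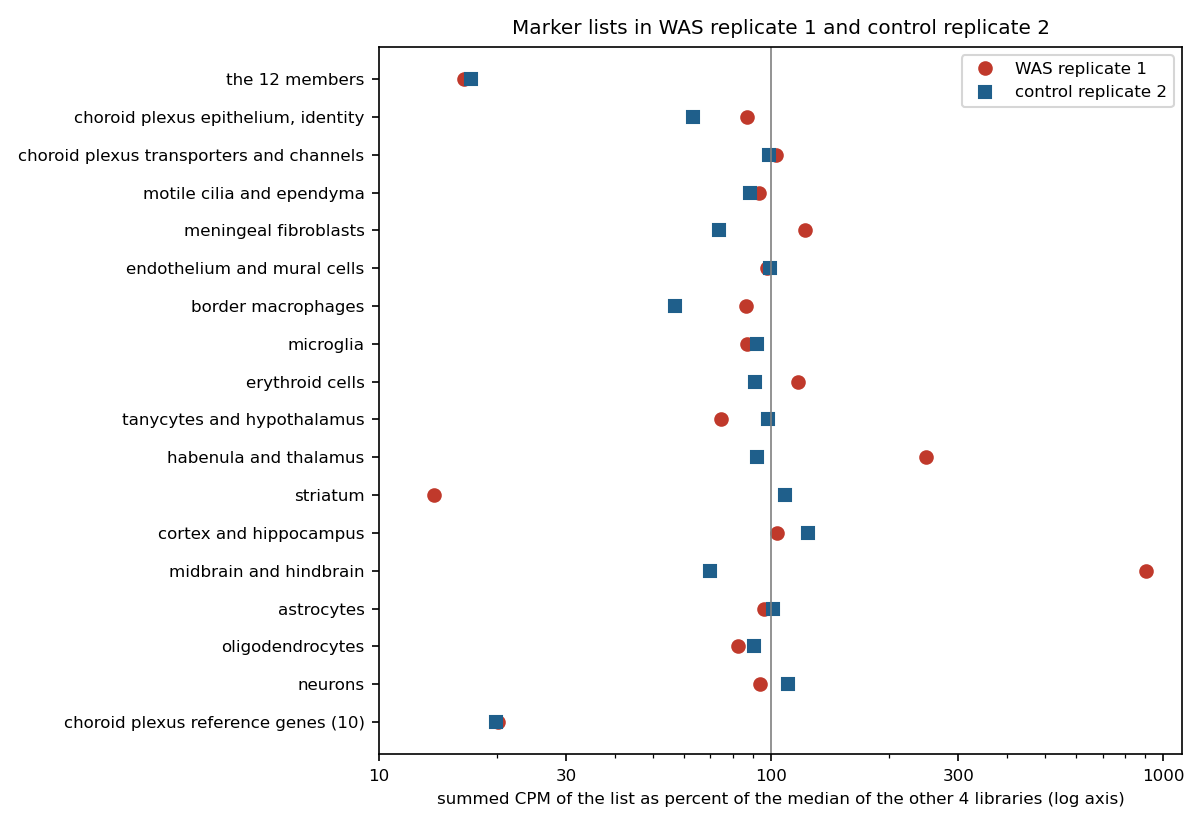
Horizontal axis (log scale), the summed CPM of each marker list in WAS replicate 1 (circles) and control replicate 2 (squares) as a percentage of the median of the other 4 libraries, with a line at 100%. The members (16.4% and 17.1%) and the 10 reference genes (20.2% and 19.9%) are low in both libraries, and the striatal list is low in WAS replicate 1 (13.8%) but not in control replicate 2 (108%).

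The comparison of WAS with control asks whether the members responded to the stress. It is another contrast than the rule, which put 1 library of each group on the low side and so widened the spread inside both groups. All 12 members passed the filter on low counts. None had both an unadjusted p under 0.05 and a change of 1.5-fold or more, the calling criteria used here, whereas 2.49% of the 15239 genes tested did, and 0 members had an unadjusted p under 0.05. At an adjusted p under 0.05, 0 members and 0% of all genes were called by edgeR's quasi-likelihood test, while 1104 genes had an unadjusted p under 0.05. The smallest adjusted p of a member was 0.949, for Wfdc2. Of the 12 members, 5 had a log2 fold change above 0 and 7 below it, with a median of -0.029 against 0.00088 over all genes tested.

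The values of the groups were close for 1500015O10Rik, whose TMM-scaled level was 8.95 ± 6.25 CPM for the WAS label (SD, n = 3) and 9.13 ± 6.27 CPM for the control label (SD, n = 3). Its log2 fold change was -0.032 with a standard error of 0.65 (adjusted p = 0.996 by edgeR with Benjamini-Hochberg adjustment). For Slc4a5 the log2 fold change was 0.16 with a standard error of 0.91, for Tmem72 -0.37 with 0.96, and for Hdc -0.33 with 0.58. The largest in size was that of Wfdc2, -0.48 with a standard error of 0.75. The median standard error of the members was 0.67 against 0.17 over all genes tested. It ran from 0.557 for Chrna3 to 0.96 for Tmem72, so that a fold change of 1.5 was not detectable for any member at this spread.

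With the 2 low libraries left out, a comparison added after the data were seen, WAS replicates 2 and 3 were set against control replicates 1 and 3. The median standard error of the members fell to 0.48, and 0 of the 12 members met the criteria, where 260 of 15248 genes tested did. The log2 fold change of 1500015O10Rik was -0.026 with a standard error of 0.20, and those of the members ran from -0.47 for Wfdc2 to 0.52 for Crabp1. The smallest adjusted p of a member was 0.975 in edgeR.

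**Figure D4:**
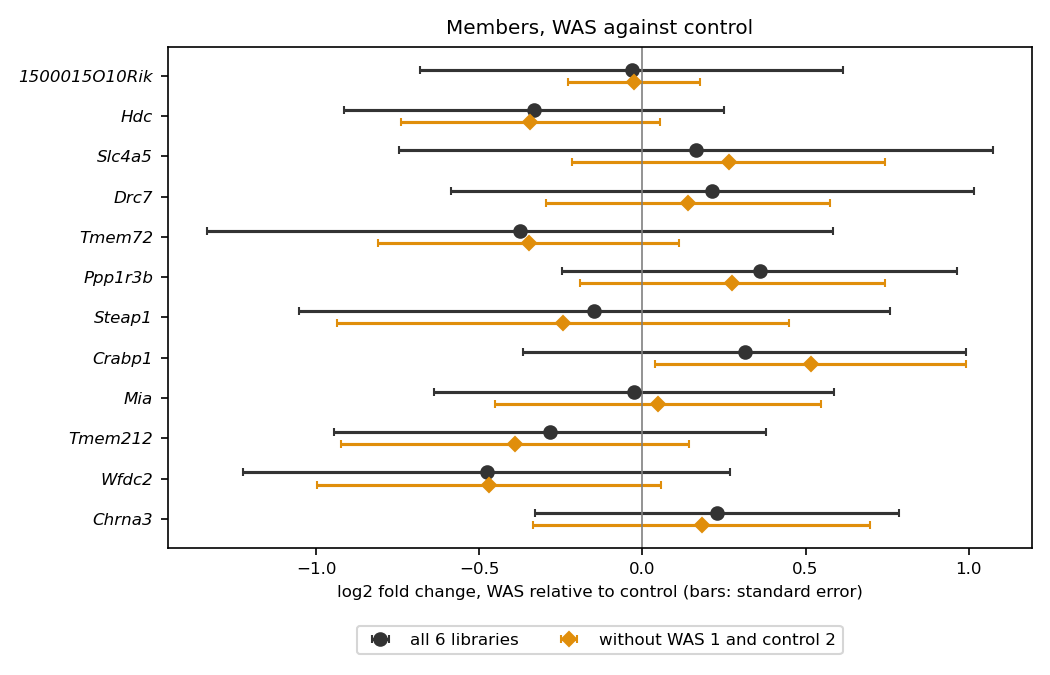
Log2 fold change of each member for WAS relative to control (horizontal axis), with bars of 1 standard error, in all 6 libraries (circles) and without WAS replicate 1 and control replicate 2 (diamonds). All values lie between -0.48 and 0.52, and the bar of 1500015O10Rik shrinks from 0.65 to 0.20 when the 2 low libraries are left out.

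Counts of called genes in the lists are to be read beside the 2.49% called over all genes tested. Of 41 choroid plexus identity genes tested, 1 was higher in the libraries labelled WAS (Lmx1a) and 0 were lower, of 37 transporter and channel genes 1 was higher (Slc29a4) and 0 lower, and of 41 cilia and ependyma genes 0 were called. The medians of the log2 fold change were 0.25, 0.043 and -0.045, against 0.00088 over all genes. Lmx1a, a homeodomain factor, had counts of 8, 16 and 9 in the WAS replicates and 3, 0 and 1 in the control replicates. Of the 10 reference genes 0 were called, with a median of -0.070. In the family lists, 0 genes were called for histamine (6 tested), SLC4 transporters (8 tested), the STEAP family (3 tested), the nexin-dynein regulatory complex (8 tested) and the glycogen-targeting subunits (5 tested). Of 11 retinoid genes tested, 2 were higher in the libraries labelled WAS, Aldh1a1 and Cyp26b1, and of 9 nicotinic and habenular genes 1 was higher, Chrna6, with 38, 0 and 27 reads against 5, 0 and 4. The lists of other regions and cell types differed in their calls. Of 6 midbrain and hindbrain genes tested, 5 were higher in the libraries labelled WAS (En1, Slc6a3, Gata3, En2 and Th), with a median log2 fold change of 3.03 over the list, and their summed level was high in WAS replicates 1 and 3 only, as given above. Of 9 habenula and thalamus genes, the list that holds Chrna3, 3 were higher (Prkcd, Tcf7l2 and Nr4a2) and 0 lower, and that list summed to 589.5 and 522.9 CPM in WAS replicates 1 and 3 against 218.8 to 240.1 CPM in the other 4 libraries. Of 22 meningeal fibroblast genes, 2 were higher (Dcn and Slc6a13) and 1 lower (Igfbp6) in the libraries labelled WAS. Like every direction between groups given here, these follow the sample labels and would change sign if the column headings were right. Pf4 was called higher among 10 border macrophage genes, and Col23a1 among 9 tanycyte and hypothalamus genes. In the lists of endothelium and mural cells, microglia, erythroid cells, pituitary and pineal, striatum, astrocytes, oligodendrocytes and neurons 0 genes were called.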

How the data were processed

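The authors prepared 1 QuantSeq 3′ library per mouse, sequenced it single-end, used Bowtie2 for alignment and Bedtools for counting, multiple alignments included. Genome build mm10 is named in the submitters' processing notes. The deposited values are raw counts for 23282 entries named by symbol. Rn45s took 4.96 to 7.32% of the counts of a library.

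Members and gene lists were chosen with earlier results of these data known, and 8 of the family lists were added after the values of the members were seen. All 12 members are named. CPM used library totals. WAS was compared with control by edgeR 4.0.16 in R 4.3.3 (quasi-likelihood test, TMM scaling, no block), on entries whose quantile-normalized counts, as log2(count + 1), averaged 2 or more, with Benjamini-Hochberg adjustment over 15239 genes. The calling criteria (1.5-fold, p under 0.05 without adjustment) follow the study's methods. The fit was checked on simulated counts. CPM with an SD are TMM-scaled. Alternatives were DESeq2 1.42.0, total-count scaling, other filters, the replicate number as a block and libraries left out. Gene positions and shared transcript ends came from GENCODE M21 (GRCm38, the assembly of mm10). Replicates are separate mice according to the labels.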

Additional observations from a re-analysis of the deposited data

How the results depend on the processing

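The rule gave 12 genes, and the same 12 with TMM-scaled totals or without Rn45s. It gave 34 genes at a ratio of 1.5, 5 at a ratio of 3 and 1 at a lowest value of 5 CPM. Leaving out 1 library at a time gave 18 to 120 genes, with 91 without WAS replicate 1 and 120 without control replicate 2, by construction since then 1 low library decides.

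Between WAS and control, 380 genes met the criteria, and leaving out 1 library gave 264 to 825, with 825 without WAS replicate 2. The number was 260 without WAS replicate 1 and control replicate 2. At an adjusted p under 0.05 there were 0 genes by edgeR, 31 by DESeq2 and 49 with the replicate block, and 0 to 491 when 1 library was left out, with 491 without WAS replicate 2. The cause was not tested. The number of members called was 0 under every alternative run. With the replicate block the log2 fold change changed sign for Steap1 (0.066) and Slc4a5 (-0.20), with total-count scaling for 1500015O10Rik (0.0042) and Mia (0.011), and without both low libraries for Mia (0.048). Same-numbered libraries correlated at 0.066 to 0.087 in their deviations from the group means, and the labels tie no number to a shared animal or day, so they were not treated as pairs. All 6 libraries correlated best with their own number, a hint from the data and not from the design. The deviations within a group sum to 0, so these correlations depend on one another and are not 6 separate results. Leaving out 1 library at a time, the log2 fold changes ran from -0.51 to 0.45 for 1500015O10Rik, -0.80 to 0.28 for Hdc, -1.06 to 0.011 for Wfdc2, -0.75 to 0.52 for Tmem212, -1.23 to 1.49 for Steap1, -1.14 to 0.75 for Slc4a5, -1.14 to 0.21 for Tmem72, -0.39 to 0.41 for Mia, -0.089 to 0.81 for Ppp1r3b, -0.34 to 0.83 for Drc7, -0.53 to 0.83 for Crabp1, -0.14 to 0.55 for Chrna3. Each of these ranges crosses 0. Low counts limit the members, since 10 of 12 rest on fewer than 25 reads in their lowest high library.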
